A study of Mus musculus with 12 samples.

Results

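The genes followed here were 10 members of the BCL2 family of cell-death regulators, namely Bcl2, Bcl2l1, Mcl1, Bax, Bak1, Bcl2l11, Bbc3, Pmaip1, Bid and Bad. They were taken by gene symbol, a list proposed with earlier results of these data known, from the 53465 genes of the deposited expression table. The table holds RNA-seq of LSKs (Lin- Sca-1+ c-Kit+ cells), the bone marrow fraction that contains hematopoietic stem cells and multipotent progenitors. There were 12 libraries in 4 groups of 3: untreated Tespa1+/+ littermates, untreated Tespa1-/- mice, and both genotypes treated with 5-fluorouracil (5-FU) and sampled on day 9. 5-FU is a drug that kills cycling cells and forces the surviving stem and progenitor cells to rebuild the blood. Per the study's methods it was injected once into the peritoneum at 150 mg/kg, and the mice were males of 8 to 10 weeks on a C57BL/6 background, backcrossed for more than 6 generations. The Tespa1 allele was carried by the whole animal, so the LSKs had also developed in a mutant marrow. Nothing in the labels says that the libraries of a group came from separate mice, and the p-values measure the spread between these libraries only.

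The BCL2 family decides whether the outer mitochondrial membrane is opened, which is the committing step of the intrinsic route to apoptosis. Guardians (here Bcl2, Bcl2l1 and Mcl1) hold the effectors Bax and Bak1 in check, and BH3-only proteins (here Bcl2l11, Bbc3, Pmaip1, Bid and Bad) bind the guardians or activate the effectors. Mcl1 is known to be required for the survival of hematopoietic stem cells, and several of the BH3-only genes are induced by DNA damage through p53. Transcript levels do not show protein levels, which for Mcl1 and Pmaip1 are also set by rapid degradation.

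The libraries held 22118154 to 28275079 counts (median 23401715). Each member had at least 227 counts in every library, so counting error alone was at most 6.64% of a value, in Bad, and 1.08% for Mcl1 at its lowest count of 8563. Tespa1 itself was measured at 46.8 ± 3.95 CPM (read counts scaled to library size with TMM factors, mean ± SD, n = 3) in untreated Tespa1+/+ LSKs, against 34.8 ± 0.225 CPM in the untreated libraries labelled Tespa1-/-. After 5-FU the respective levels were 53.1 ± 5.35 and 19.2 ± 1.76 CPM, and in neither state did the 3 libraries of one genotype overlap those of the other. Reads of Tespa1 thus remained in the Tespa1-/- libraries, at a lower level (log2 fold change -0.42 untreated and -1.47 after 5-FU, edgeR adjusted p = 0.0316 and 9.38e-05). The counts are per gene and do not look inside the targeted stretch of the allele. The markers of the LSK gate (9 genes) were detected in every group, with Kit at 327 to 473 CPM and Ly6a, which encodes Sca-1, at 10.5 to 45.1 CPM. In Tespa1-/- LSKs after 5-FU the 10 neutrophil markers summed to 1015 to 1024 CPM, against 3.66 to 8.40 CPM in Tespa1+/+ LSKs after 5-FU, where Retnlg and Cd177 were at 0. The 7 erythroid markers summed to 391 to 415 CPM against 25.1 to 37.6 CPM, and the 2 eosinophil markers to 570.5 to 603 CPM against at most 0.700 CPM. Over the same libraries the summed LSK gate markers were 758 to 829.9 CPM against 1273 to 1326 CPM, and 7 of the 9 were called lower. This marker shift moved with every difference that involves the 3 Tespa1-/- libraries after 5-FU, and its part in those differences was not tested. Smaller shifts went with the other comparisons. From untreated Tespa1+/+ to untreated Tespa1-/- LSKs the LSK gate markers went from 1572 to 1631 CPM down to 1288 to 1333 CPM, the 6 B cell markers from 58.2 to 66.8 down to 34.0 to 41.3 CPM, the 4 megakaryocyte markers from 34.4 to 39.3 up to 61.9 to 63.6 CPM and the neutrophil markers from 0.769 to 1.39 up to 4.61 to 5.86 CPM. In Tespa1+/+ LSKs after 5-FU the B cell markers stood at 248 to 255 CPM and the megakaryocyte markers at 108 to 122 CPM. The part of these shifts in the results was not tested either.

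Levels per transcript length (FPKM) put Mcl1 far above the other members in all groups. In untreated Tespa1+/+ LSKs it reached 179 ± 0.907 FPKM, against 18.3 ± 0.65 FPKM for Bcl2, 13.5 ± 1.90 FPKM for Bcl2l11 and 9.66 ± 1.60 FPKM for Bak1. These 4 levels did not overlap between neighbours in the order. The next 5 members, Pmaip1, Bbc3, Bax, Bid and Bad, lay between 7.23 and 3.68 FPKM, and each overlapped its neighbour within the spread of the libraries. Bcl2l1, the gene of BCL-XL, was lowest in each group, with group means of 1.19 to 1.67 FPKM. The order below Mcl1 was not fixed. Bcl2l11 stood at position 3 of 10 in untreated Tespa1+/+ LSKs, 5 in untreated Tespa1-/- LSKs, 8 in Tespa1+/+ LSKs after 5-FU and 9 in Tespa1-/- LSKs after 5-FU. At positions 5 and 8 its libraries overlapped those of its neighbours. Bcl2 held position 2 in the first 3 of these groups and position 4 in the last, where its level of 9.84 ± 0.506 FPKM overlapped those of Pmaip1 above it and Bax below it.

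The sequence just upstream of the start site is shown for the 3 members called in the most comparisons, Mcl1, Bcl2 and Bcl2l11. Each is the 250 bases before the RefSeq start (build GRCm38.p6), read 5′ to 3′ on the gene's strand, at chr3:95658471-95658720 (plus strand) for Mcl1, chr1:106714291-106714540 (minus strand) for Bcl2 and chr2:128125788-128126037 (plus strand) for Bcl2l11. Capitals mark matches, on either strand, to 6 motifs: the E-box CACGTG, the CRE TGACGTCA, a FOXO motif GTAAACA, the GC box GGGCGG, the CCAAT box CCAAT and the TATA box TATAAA.
Mcl1: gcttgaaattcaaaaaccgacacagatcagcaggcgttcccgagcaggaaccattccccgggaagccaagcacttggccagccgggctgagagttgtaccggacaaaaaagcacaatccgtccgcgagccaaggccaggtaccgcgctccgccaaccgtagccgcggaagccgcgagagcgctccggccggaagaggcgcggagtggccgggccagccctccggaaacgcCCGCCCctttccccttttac
Bcl2: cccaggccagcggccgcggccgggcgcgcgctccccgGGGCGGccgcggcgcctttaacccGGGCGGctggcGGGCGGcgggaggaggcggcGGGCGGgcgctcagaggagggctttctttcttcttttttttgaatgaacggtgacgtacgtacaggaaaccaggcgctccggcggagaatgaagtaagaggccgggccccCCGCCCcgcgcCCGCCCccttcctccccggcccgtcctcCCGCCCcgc
Bcl2l11: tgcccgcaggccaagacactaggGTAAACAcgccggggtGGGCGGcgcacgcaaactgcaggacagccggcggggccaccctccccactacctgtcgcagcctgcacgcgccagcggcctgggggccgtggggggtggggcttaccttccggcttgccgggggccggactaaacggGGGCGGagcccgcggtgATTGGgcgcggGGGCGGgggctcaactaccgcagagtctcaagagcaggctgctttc
The Mcl1 window held 1 GC box, 20 bases before the start. The Bcl2 window held 7 GC boxes. The Bcl2l11 window, which is that of the first of its RefSeq starts, held 1 FOXO motif, 3 GC boxes and 1 CCAAT box, and no printed matches overlapped each other. Of 32851 RefSeq windows of this length, 32.7% held a GC box, 33.8% a CCAAT box, 12.4% a TATA box, 6.02% an E-box, 3.17% the FOXO motif and 1.55% the CRE. The GC content of the windows was 64.4% for Mcl1, 74.8% for Bcl2 and 72.0% for Bcl2l11, against a median of 52.4%. A match is a stretch of letters and not a measured binding site. Windows were found for 9 of the 10 members.

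The genotypes were compared first in untreated LSKs, to ask how the family stood before any stress. Mcl1 and Bcl2l11, a guardian and a BH3-only activator, were both lower in Tespa1-/- LSKs, and the other 8 members did not pass the test. The 2 called members of 10 stood against 5.23% of the 17055 genes tested (edgeR's quasi-likelihood test, Benjamini-Hochberg adjusted p below 0.05). Both also exceeded a fold of 1.5, which 2.51% of all genes did, and lower calls made up 3.59% of all genes and higher calls 1.64%. The median log2 difference was -0.03 over the members and 0.01 over all tested genes. For bulk libraries such as these, a lower share of cells that express a gene and less RNA per cell cannot be told apart.

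Among the guardians, Mcl1 was at 745, 738 and 730.3 CPM in the 3 untreated Tespa1+/+ libraries and at 446, 469.5 and 449.7 CPM in the 3 untreated Tespa1-/- libraries. The groups lay far apart relative to their spread. Mcl1 was 1.61-fold lower in Tespa1-/- LSKs (log2 fold change -0.68 ± 0.04 SE, edgeR adjusted p = 3.31e-05). Bcl2, the founding guardian, was at 197, 182 and 183 CPM in Tespa1+/+ libraries and at 177, 177 and 187 CPM in Tespa1-/- libraries. These ranges overlapped, and the 95% interval of the log2 difference ran from -0.14 to 0.06. Intervals here and below come from the SE by a normal approximation and are somewhat narrower than the test implies. Bcl2l1 was at 13.1, 18.02 and 12.2 CPM against 16.6, 12.6 and 13.4 CPM, with a wide interval from -0.39 to 0.37.

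The effectors, which form the pore in the mitochondrial membrane, did not pass the test in untreated LSKs. Bax was at 13.5, 17.1 and 15.2 CPM in Tespa1+/+ libraries and at 17.7, 17.2 and 14.99 CPM in Tespa1-/- libraries. Bak1 was at 42.2, 50.9 and 36.9 CPM against 41.3, 45.5 and 48.3 CPM. Both genes overlapped between the genotypes, with 95% intervals of the log2 difference from -0.16 to 0.42 for Bax and from -0.18 to 0.32 for Bak1.

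Among the BH3-only genes, Bcl2l11, which encodes BIM and acts when growth factor signals are withdrawn, was at 186, 212 and 243 CPM in Tespa1+/+ libraries. It was at 80.7, 109 and 112 CPM in Tespa1-/- libraries. All 3 Tespa1-/- values lay well below the lowest Tespa1+/+ value, a 2.11-fold difference (log2 fold change -1.08 ± 0.14, edgeR adjusted p = 0.00396). Bbc3, the p53 target that encodes PUMA, was at 19.8, 19.9 and 18.4 CPM against 13.7, 13.3 and 15.1 CPM, without overlap, but its log2 difference of -0.46 ± 0.12 did not pass the adjustment (edgeR adjusted p = 0.0834). Bid, which is cut by caspase-8 and links death receptors to mitochondria, was at 27.8, 29.5 and 21.4 CPM against 34.7, 36.5 and 34.7 CPM, also without overlap and also short of the threshold (0.44 ± 0.13, edgeR adjusted p = 0.107). By DESeq2 both were called, with adjusted p of 0.0425 for Bbc3 and 0.0339 for Bid. In all, 4 of the 10 members did not overlap between the genotypes, against 25.5% of all tested genes.

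Pmaip1, another p53 target, which encodes the MCL1-binding NOXA, was at 21.96, 19.9 and 16.7 CPM in untreated Tespa1+/+ libraries and at 20.1, 18.4 and 20.7 CPM in untreated Tespa1-/- libraries. Bad, whose protein is held inactive by survival kinases, was at 12.04, 14.3 and 13.9 CPM against 13.7, 14.01 and 9.92 CPM. Neither gene passed the test, and the libraries of both overlapped.

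**Figure D1:**
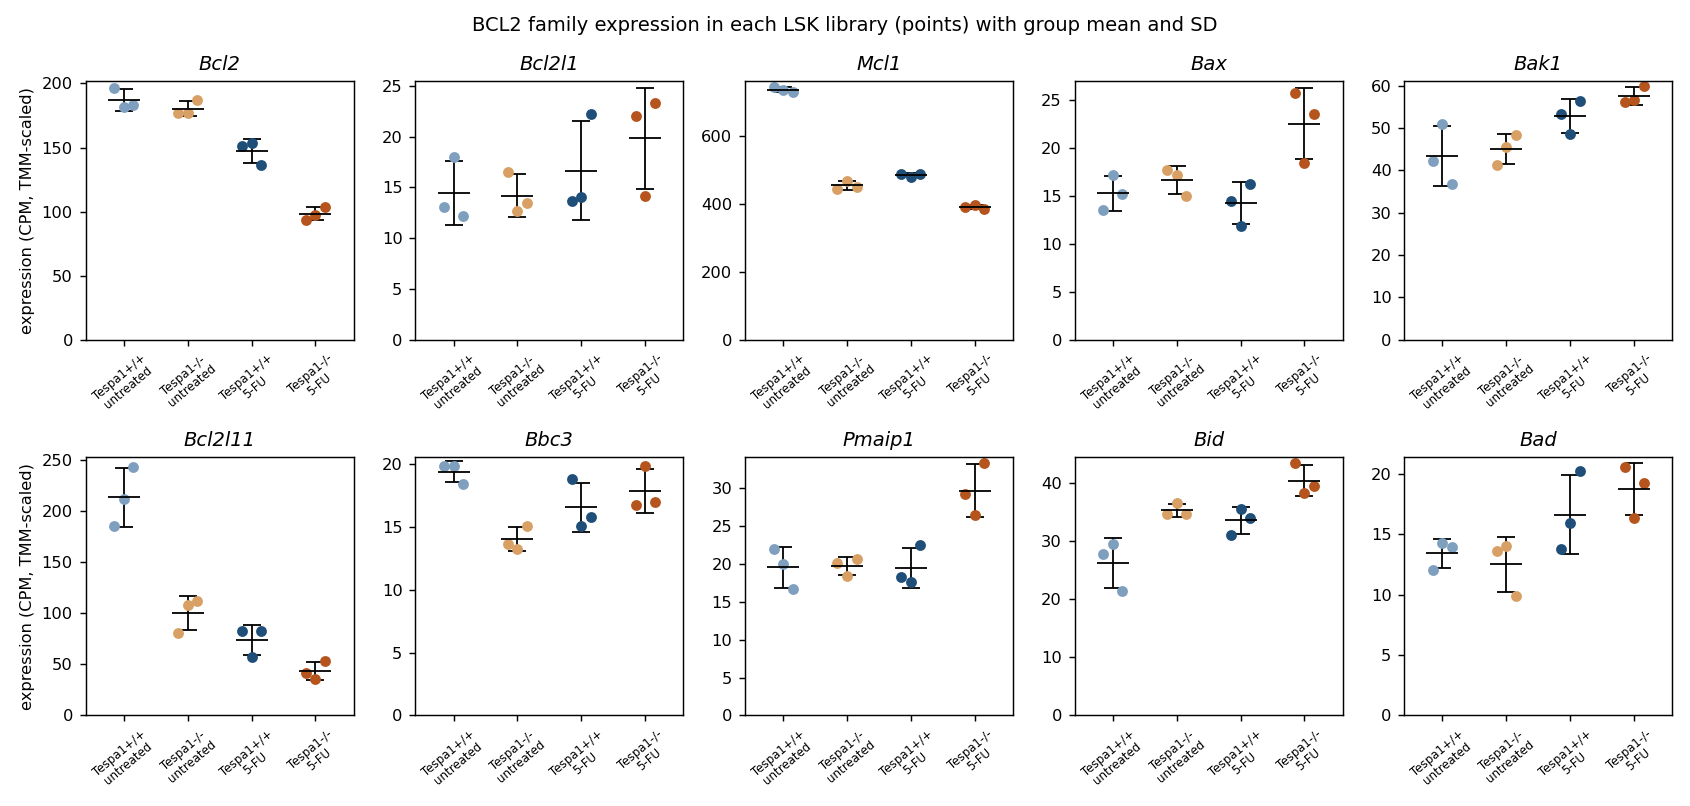
Expression of the 10 BCL2 family genes in each of the 12 LSK libraries (points, CPM with TMM scaling, linear axes that start at 0), with the mean and SD of each group of 3 (black). Mcl1 and Bcl2l11 were highest in untreated Tespa1+/+ LSKs, and Bcl2 was lowest in Tespa1-/- LSKs after 5-FU, at 93.8 to 104 CPM.

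The genotypes were next compared at day 9 after 5-FU. Bcl2, Mcl1 and Bcl2l11 were lower in Tespa1-/- LSKs, while Bax and Pmaip1 were higher, so that 5 of 10 members were called against 13.1% of the 17239 genes tested. Of these, 3 were lower (5.78% of all genes) and 2 higher (7.34%). Only Bcl2 and Mcl1 were called, 2 of 10, without replicate 1 of either genotype. A fold above 1.5 was passed by 3 of the 5, Bax, Bcl2l11 and Pmaip1, against 6.98% of all genes. The median log2 difference was 0.15 over the members and -0.01 over all genes. Groups did not overlap for 6 of the 10, the 5 called and Bid, against 33.1% of all genes. At this day the paper reported, by flow cytometry, comparable apoptosis rates of both genotypes in long-term hematopoietic stem cells, a part of the LSKs.

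Both abundant guardians were lower. Bcl2 was at 152, 153 and 137 CPM in Tespa1+/+ libraries and at 93.8, 97.6 and 104 CPM in Tespa1-/- libraries. The highest Tespa1-/- value stayed below the lowest Tespa1+/+ value, and the difference was 1.495-fold (log2 fold change -0.58 ± 0.07, edgeR adjusted p = 0.000796). Mcl1 was at 489, 481 and 490.0 CPM against 393, 396 and 386 CPM. This tight separation amounted to a 1.24-fold lower level in Tespa1-/- LSKs (-0.31 ± 0.04, edgeR adjusted p = 0.000859). Bcl2l1 was at 13.7, 14.01 and 22.3 CPM against 22.02, 14.1 and 23.3 CPM, with overlapping groups and a 95% interval of the log2 difference from -0.23 to 0.74.

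Of the effectors, Bax was at 14.5, 11.9 and 16.3 CPM in Tespa1+/+ libraries and at 25.7, 18.5 and 23.5 CPM in Tespa1-/- libraries. The Tespa1-/- values were all higher, by 1.59-fold on average (0.67 ± 0.18, edgeR adjusted p = 0.0404). The call was lost in 5 of the 6 fits with a library removed, every one except that without Tespa1-/- replicate 2, with an edgeR adjusted p of up to 0.137, and with no filter on low counts (0.0522). Bak1 was at 53.3, 48.5 and 56.4 CPM against 56.1, 56.7 and 59.9 CPM. Its groups overlapped narrowly and its log2 difference of 0.13 ± 0.09 was not called.

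Of the BH3-only genes, Bcl2l11 was at 82.5, 56.8 and 82.8 CPM in Tespa1+/+ libraries after 5-FU and at 41.7, 35.5 and 53.4 CPM in Tespa1-/- libraries. It was 1.70-fold lower there (-0.77 ± 0.18, edgeR adjusted p = 0.0218), although the Tespa1+/+ value of replicate 2 came close to the highest Tespa1-/- value. Pmaip1 was at 18.3, 17.6 and 22.4 CPM against 29.2, 26.4 and 33.3 CPM. All Tespa1-/- libraries lay above all Tespa1+/+ libraries, a 1.53-fold difference (0.61 ± 0.15, edgeR adjusted p = 0.0257). Each of these calls was lost in 4 of the 6 fits with a library removed, where the edgeR adjusted p reached 0.0815 for Bcl2l11 (without replicate 1 or 3 of Tespa1+/+, or 1 or 2 of Tespa1-/-) and 0.0965 for Pmaip1 (without replicate 1 or 2 of Tespa1+/+, or 1 or 3 of Tespa1-/-).

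The remaining BH3-only genes were not called after 5-FU. Bid was at 31.0, 35.6 and 34.1 CPM in Tespa1+/+ libraries and at 43.4, 38.3 and 39.5 CPM in Tespa1-/- libraries, which did not overlap (0.27 ± 0.11, edgeR adjusted p = 0.146). Bbc3 was at 18.8, 15.1 and 15.8 CPM against 16.7, 19.8 and 16.9 CPM, and Bad at 13.8, 15.9 and 20.3 CPM against 20.6, 16.4 and 19.3 CPM. Both overlapped between the genotypes. The interval of the log2 difference ran from -0.20 to 0.41 for Bbc3 and from -0.18 to 0.53 for Bad.

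The response to 5-FU was then compared within each genotype, using the same libraries, so these comparisons are not independent of the preceding ones. In Tespa1+/+ LSKs 3 members were called against 7.95% of the 17002 genes tested, and all 3 fell (4.18% of all genes were called lower and 3.77% higher). Bcl2l11 fell by 1.51 on the log2 scale (± 0.16 SE, edgeR adjusted p = 0.000484), from 214 ± 28.6 to 74.0 ± 14.9 CPM. Mcl1 fell by 0.58 (± 0.04, edgeR adjusted p = 3.13e-05), from 738 ± 7.42 to 487 ± 4.82 CPM. Bcl2 fell by 0.33 (± 0.07, edgeR adjusted p = 0.0167), from 187 ± 8.40 to 147 ± 9.17 CPM, a call that was lost without untreated replicate 1 (0.0554) or without 5-FU replicate 3 (0.0683). A fold above 1.5 was passed by Bcl2l11 alone, against 4.43% of all genes. The other 7 members did not pass the test. Bid was at 26.2 ± 4.31 CPM untreated and 33.6 ± 2.33 CPM after 5-FU, which did not overlap but was not called (edgeR adjusted p = 0.174), and with the 3 called genes it made 4 non-overlapping members, against 28.7% of all genes.

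In Tespa1-/- LSKs 6 members were called after 5-FU, against 19.4% of the 17228 genes tested. Bcl2 fell by 0.88 on the log2 scale (± 0.06, edgeR adjusted p = 1.72e-05), from 180.4 ± 5.67 to 98.4 ± 5.03 CPM. Bcl2l11 fell by 1.21 (± 0.16, edgeR adjusted p = 0.00121), from 100.4 ± 17.1 to 43.5 ± 9.10 CPM. Mcl1 fell by 0.22 (± 0.04, edgeR adjusted p = 0.00408), from 455 ± 12.7 to 391 ± 5.43 CPM. Each of them had been called lower in Tespa1+/+ LSKs as well. All members called lower numbered 3, against 8.64% of all genes.

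A further 3 members rose in Tespa1-/- LSKs, against 10.7% of all genes. Pmaip1 rose by 0.58 ± 0.12 on the log2 scale (edgeR adjusted p = 0.00952), from 19.7 ± 1.18 to 29.7 ± 3.47 CPM, and kept its call in each fit with a library removed. Bak1 rose by 0.35 ± 0.08 (edgeR adjusted p = 0.0165), from 45.0 ± 3.53 to 57.6 ± 2.03 CPM. Bad rose by 0.58 ± 0.17 (edgeR adjusted p = 0.0487), from 12.5 ± 2.27 to 18.7 ± 2.15 CPM. The Bak1 call was lost without untreated replicate 1 or 2 or 5-FU replicate 3 (edgeR adjusted p up to 0.0677), and the Bad call in 5 of 6 such fits, all but that without 5-FU replicate 2 (adjusted p up to 0.134), with the replicate number as a block (0.077) and with no filter on low counts (0.0645). A fold above 1.5 was passed by Bcl2 and Bcl2l11, against 10.1% of all genes. In this comparison 9 of 10 members did not overlap, all but Bcl2l1, against 38.6% of all genes, and the median log2 change was 0.35 over the members and -0.01 over all genes. In Tespa1+/+ LSKs Bak1 changed by 0.30 ± 0.13 and Bad by 0.33 ± 0.19, without a call (edgeR adjusted p = 0.226 and 0.374). The responses of these 2 genes are not shown to differ between the genotypes (edgeR adjusted p of the interaction = 0.891 and 0.669).

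**Figure D2:**
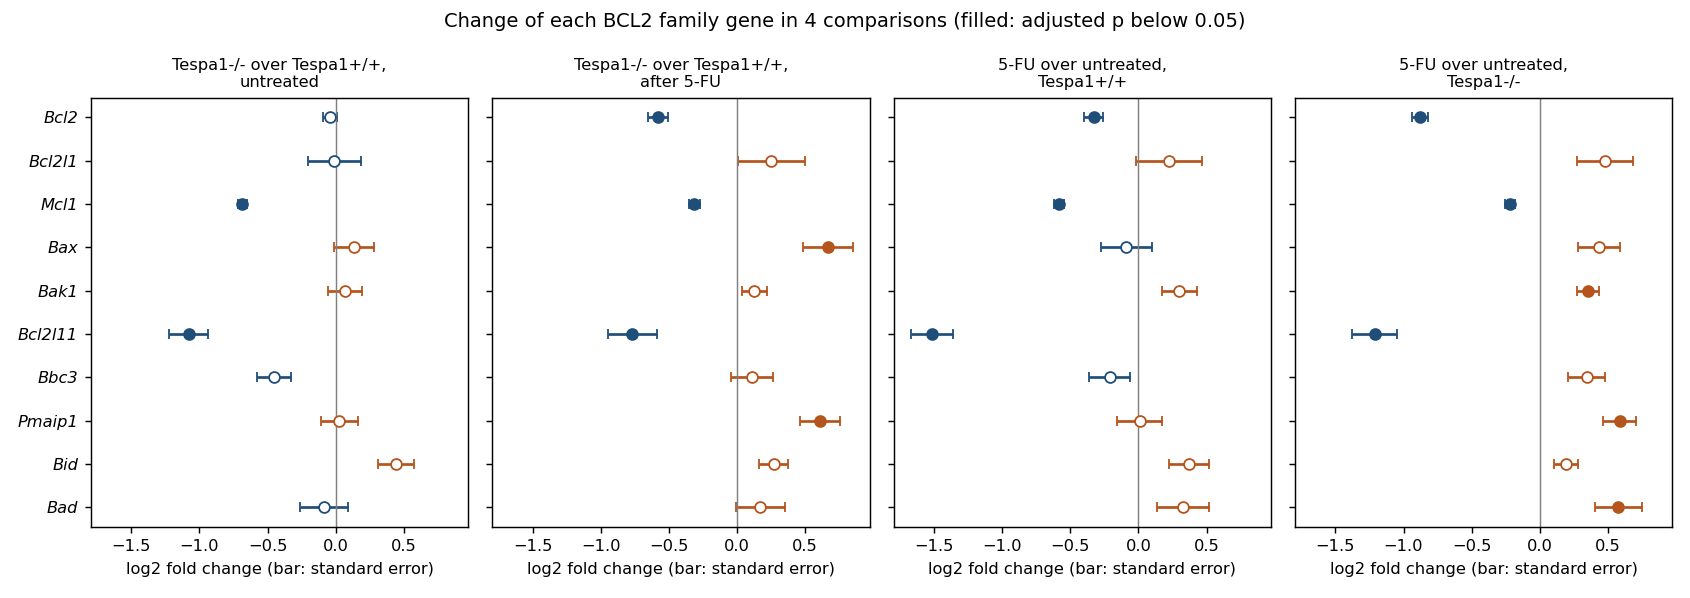
Log2 fold change (points) with its standard error (bars) for the 10 genes in the 2 comparisons of genotype and the 2 of 5-FU treatment, where filled points have an edgeR adjusted p below 0.05. Mcl1 and Bcl2l11 are filled and below 0 in all 4 panels, and filled points above 0 occur only where Tespa1-/- libraries after 5-FU are on the upper side.

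Whether the genotype difference itself changed with 5-FU was tested with an interaction term over the 12 libraries. This passed for 2 members, against 5.01% of the 18696 genes tested, and in opposite directions (3.02% of all genes were called with a positive shift and 1.99% with a negative one). Neither shift exceeded a fold of 1.5, against 3.21% of all genes. For Bcl2 the genotype difference shifted down by 0.54 on the log2 scale after 5-FU (-0.54 ± 0.09, edgeR adjusted p = 0.00266), from -0.04 untreated to -0.58. For Mcl1 it shifted up by 0.37 (0.37 ± 0.05, edgeR adjusted p = 0.000551), since the genotypes were 0.68 apart before treatment and 0.31 after. For Bcl2l11 the interval of the shift ran from -0.18 to 0.81 and the difference between responses was not called (edgeR adjusted p = 0.568). The shifts of Bax (0.54), Bbc3 (0.57) and Pmaip1 (0.59) were of similar size to that of Bcl2 but with larger errors (SE 0.24, 0.19 and 0.20), and were not called (edgeR adjusted p = 0.245, 0.115 and 0.122). The responses of these genes are therefore not shown to differ between the genotypes.

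The balance within the family was described from FPKM, with ratios taken inside each library and no test. The 3 guardians made up 78.5 to 80.4% of the summed FPKM of the 10 genes in untreated Tespa1+/+ LSKs, 74.1 to 74.8% in untreated Tespa1-/- LSKs, 73.3 to 76.4% in Tespa1+/+ LSKs after 5-FU and 65.5 to 68.4% in Tespa1-/- LSKs after 5-FU. Mcl1 alone was 70.9 to 72.3% of it in untreated Tespa1+/+ LSKs and 58.0 to 61.6% in Tespa1-/- LSKs after 5-FU. The guardian share was lowest in the latter group and did not overlap the others there. The share of Bax and Bak1 was 5.70 to 7.05%, 9.37 to 9.47%, 8.79 to 10.2% and 12.5 to 13.8% in the same order of groups. Their summed FPKM was 14.07 to 17.93, 16.19 to 16.97, 16.01 to 19.63 and 20.06 to 22.82, so only the last group stood apart. The 10 genes together summed to 246.9 to 254.2, 172.7 to 180.9, 182.2 to 192.1 and 159.9 to 165.7 FPKM. The higher effector share in untreated Tespa1-/- LSKs and in Tespa1+/+ LSKs after 5-FU thus went with a lower family sum. The BH3-only share was 13.81 to 14.41%, 15.84 to 16.43%, 14.78 to 16.53% and 19.06 to 20.77%.

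Ratios between single members moved in different ways. Bcl2 per Bax, a ratio long used as a summary of the family, was 2.73 to 3.75 in untreated Tespa1+/+ LSKs, 2.57 to 3.21 in untreated Tespa1-/- LSKs and 2.16 to 3.32 in Tespa1+/+ LSKs after 5-FU, so these groups overlapped. It was 0.94 to 1.36 in Tespa1-/- LSKs after 5-FU. Mcl1 per Pmaip1, its BH3-only partner, was 22.3 to 28.8, 14.3 to 16.8, 14.4 to 17.97 and 7.60 to 9.85 in the 4 groups. Bcl2 per Bcl2l11 went the other way and was lowest, at 1.16 to 1.64, in untreated Tespa1+/+ LSKs, against 2.52 to 3.40 in untreated Tespa1-/- LSKs, 2.55 to 4.17 in Tespa1+/+ LSKs after 5-FU and 3.01 to 4.26 in Tespa1-/- LSKs after 5-FU, which overlapped each other. These ratios count transcripts of all isoforms and both pro- and anti-apoptotic forms alike.

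**Figure D3:**
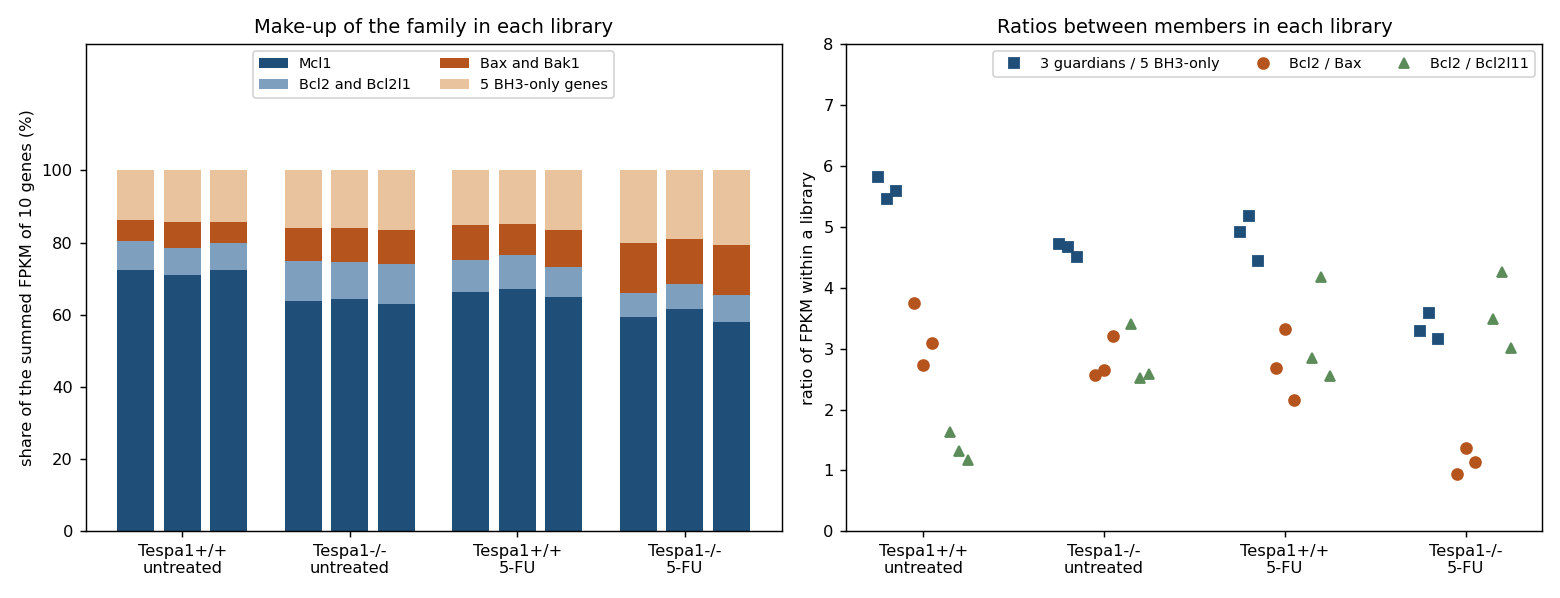
Left, share of the summed FPKM of the 10 genes taken by Mcl1, the other guardians, the effectors and the BH3-only genes in each of the 12 libraries (stacked bars from 0). Right, ratios of FPKM within each library (points), where Bcl2 per Bax lies at 0.94 to 1.36 in Tespa1-/- LSKs after 5-FU and at 2.16 or more in the other libraries.

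Another 56 genes of cell death, in 5 lists, were read in the same tests. In untreated LSKs 1 of the 49 tested was higher and 6 were lower in Tespa1-/- LSKs, against 1.64% and 3.59% of all genes. After 5-FU 3 of 52 were higher and 4 lower, against 7.34% and 5.78%. 5-FU raised 6 of 49 and lowered 3 in Tespa1+/+ LSKs, against 3.77% and 4.18%. It raised 6 of 50 and lowered 9 in Tespa1-/- LSKs, against 10.7% and 8.64%. The interaction passed for 5 of 52, against 5.01%.

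Among upstream regulators of the family, 1 gene was higher and 4 were lower of 13 tested in untreated Tespa1-/- LSKs, beside the 1.64% and 3.59% of all genes. Foxo1, whose product is known to activate Bcl2l11 and Bbc3, was at 43.3, 29.7 and 37.8 CPM in untreated Tespa1+/+ libraries and at 21.0, 22.7 and 21.5 CPM in Tespa1-/- libraries. The groups did not overlap (log2 fold change -0.75 ± 0.14, edgeR adjusted p = 0.0199). After 5-FU its means were 44.4 ± 5.30 CPM (Tespa1+/+) and 43.7 ± 5.38 CPM (Tespa1-/-), and the gene rose by 1.01 ± 0.11 within Tespa1-/- LSKs (edgeR adjusted p = 0.000369). Ddit3, the CHOP transcription factor of the unfolded protein response, was at 35.0, 32.6 and 33.5 CPM against 19.5, 18.6 and 21.9 CPM in untreated LSKs (-0.74 ± 0.11, edgeR adjusted p = 0.00609). Like the untreated Tespa1-/- level, the Tespa1+/+ level after 5-FU was low, at 20.7 ± 3.11 CPM, having fallen by 0.69 ± 0.14 (edgeR adjusted p = 0.0175).

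In the death receptor arm, Tnfsf10, the gene of the ligand TRAIL, was at 79.8, 70.1 and 72.8 CPM in Tespa1+/+ libraries after 5-FU and at 41.1, 41.6 and 43.4 CPM in Tespa1-/- libraries. This was a clear separation (-0.82 ± 0.09, edgeR adjusted p = 0.000335). Before treatment both genotypes stood near the lower level, at 41.0 ± 7.66 and 41.2 ± 3.17 CPM, and 5-FU raised the gene by 0.87 ± 0.14 in Tespa1+/+ LSKs (edgeR adjusted p = 0.0048). Xaf1, an antagonist of XIAP, had 46.1, 37.3 and 53.0 CPM in Tespa1+/+ libraries after 5-FU and 20.5, 22.2 and 26.4 CPM in Tespa1-/- libraries (-0.98 ± 0.16, edgeR adjusted p = 0.0032). It rose by 0.63 ± 0.14 with 5-FU in Tespa1+/+ LSKs (edgeR adjusted p = 0.0295). Htra2, a mitochondrial protease that relieves IAP inhibition once released, was higher in Tespa1-/- LSKs after 5-FU, at 37.3, 36.2 and 42.1 CPM against 27.4, 20.1 and 24.9 CPM (0.67 ± 0.14, edgeR adjusted p = 0.0127). Tnfrsf10b, a TRAIL receptor, fell by 0.79 ± 0.21 with 5-FU in Tespa1-/- LSKs (edgeR adjusted p = 0.0306), where it was at 4.32 ± 0.208 CPM. In Tespa1+/+ LSKs its change was -0.59 ± 0.36 and not called. The responses of Tnfrsf10b are not shown to differ (edgeR adjusted p of the interaction = 0.878).

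Downstream of the mitochondria, 12 genes of the apoptosome and caspases were tested. With 5-FU 2 rose in Tespa1+/+ LSKs (3.77% of all genes rose), and 3 rose and 3 fell in Tespa1-/- LSKs (10.7% and 8.64% of all genes). Apaf1, the apoptosome scaffold, rose by 0.64 ± 0.14 in Tespa1+/+ LSKs (edgeR adjusted p = 0.0214), from 42.6 ± 3.13 to 65.6 ± 11.4 CPM. It also rose in Tespa1-/- LSKs, by 0.48 ± 0.09 (edgeR adjusted p = 0.00689), from 53.6 ± 4.27 to 74.9 ± 6.98 CPM, and the responses are not shown to differ (edgeR adjusted p = 0.729). Casp9, the initiator caspase that it activates, rose by 1.10 ± 0.27 in Tespa1+/+ LSKs (edgeR adjusted p = 0.0362), from 5.25 ± 1.17 to 11.2 ± 2.46 CPM. Endog, a mitochondrial nuclease, fell by 0.78 ± 0.22 in Tespa1-/- LSKs (edgeR adjusted p = 0.0394), at the low level of 6.45 ± 1.05 to 3.75 ± 0.595 CPM. Among other BCL2 family genes, the BH3-only gene Bmf rose by 1.05 ± 0.26 with 5-FU in Tespa1+/+ LSKs (edgeR adjusted p = 0.0391), from 3.48 ± 0.609 to 7.12 ± 1.002 CPM. The responses of Casp9, Endog and Bmf are not shown to differ between the genotypes either (edgeR adjusted p of the interaction = 0.528, 0.253 and 0.565).

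**Figure D4:**
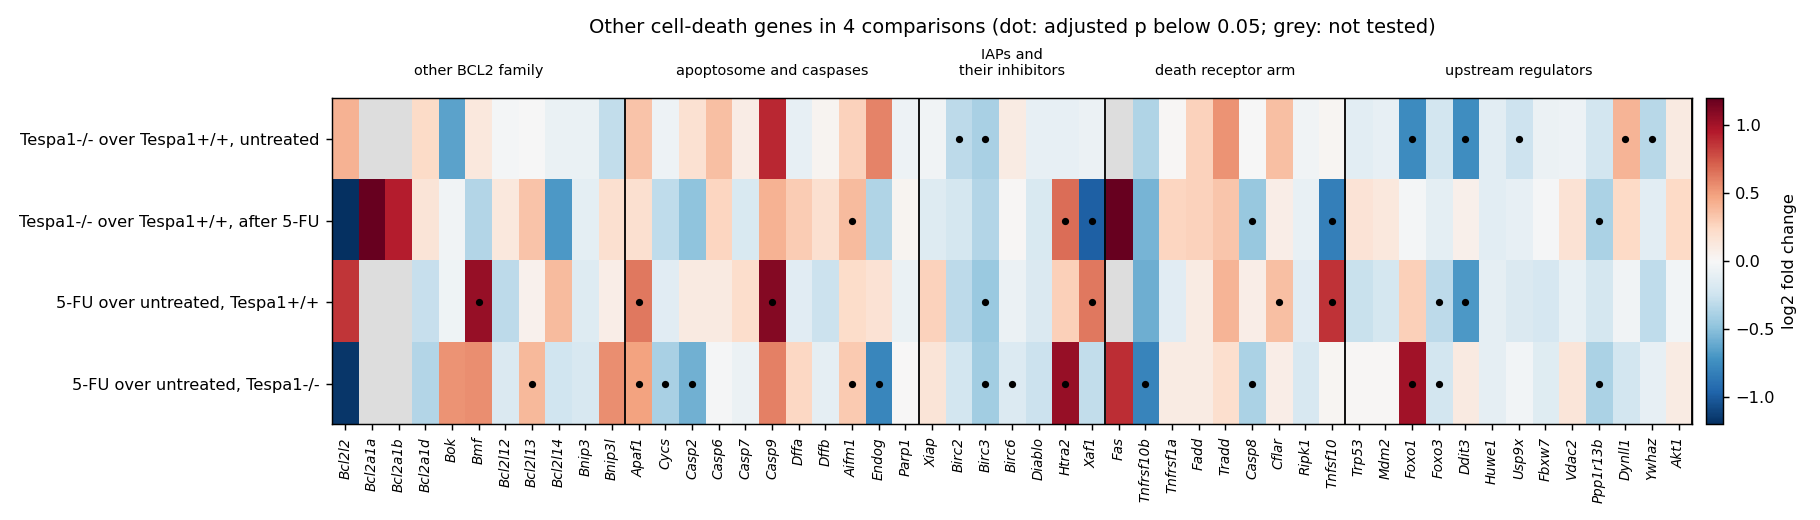
Log2 fold change (color, limited to 1.2 in either direction) of the other cell-death genes that are shown, grouped by list, in the 2 comparisons of genotype and the 2 of 5-FU treatment, with dots for an edgeR adjusted p below 0.05 and grey for genes not tested. Foxo1 and Ddit3 carry a dot in untreated LSKs, and Tnfsf10 and Xaf1 carry one after 5-FU.

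For each member, the gene with the most similar pattern, among the other members and the genes of these lists, was found by Pearson's r of log2 CPM over the 12 libraries (57 genes compared). These values describe 12 libraries that fall into 4 groups, so r mainly follows the group means. Bcl2l11 was most like Birc3, an IAP and NF-kappaB target, with r = 0.947, and Mcl1 was most like the same gene with r = 0.914. After the group means were removed, r was 0.434 and 0.363. Bax and Pmaip1 were each other's nearest at r = 0.798 (0.343 within groups), and Bcl2 was most like Bcl2l11 at r = 0.844 (-0.07 within groups). Bid was most like Cflar, an inhibitor of caspase-8 (0.86), and Bcl2l1 was most like Bad (0.767). Bbc3 was most like Ddit3, and its r was 0.757 over all libraries and 0.767 within groups.

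The members lie at separate places in the genome, and their annotation limits some values. By GENCODE M21 (GRCm38), exons of Bid overlapped those of Bcl2l13 on the opposite strand over 17.7% of their length, and Bcl2l13 had 1299 to 2335 counts. Exons of Bak1 overlapped Ggnbp1 over 25.5% (46 to 652 counts) and those of Bad overlapped Gpr137 over 20.5% (76 to 214 counts), both on the opposite strand. Bax shared 12.2% with Gm45808 on the same strand (0 to 32 counts). Bcl2 shared 6.1% with D630008O14Rik on the opposite strand (0 to 11 counts). Mcl1, Bcl2l11, Bbc3, Pmaip1 and Bcl2l1 overlapped no other exons. Whether the counting used strand is not given in the sources used here, so reads of an overlapping pair may not be separated, which touches the values of Bid, Bak1 and Bad most.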

How the data were processed

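The authors sequenced poly-A RNA of sorted LSKs as stranded, paired-end libraries. Their processing notes name CASAVA 1.8, HISAT2, StringTie, edgeR and the build GRCm38, without parameters, and the use of strand in counting is not given in the sources used here. The deposited table holds, for each library, counts of reads per gene without normalization, which the authors also turned into FPKM. Testing of the deposited counts used edgeR 4.0.16 under R 4.3.3: filterByExpr with a minimum count of 10, TMM factors (0.97 to 1.03), the quasi-likelihood test, and Benjamini-Hochberg adjustment over all genes passing the filter. Each comparison used its own 6 libraries, and the interaction used all 12. FPKM served to compare genes and to form shares and ratios within a library, and no difference between groups was tested on it. Groups came from the labels. Simulated counts served only to check, for some of the comparisons, that the code finds planted differences. They had a smaller spread between libraries than was measured here, so they do not gauge false calls in these data. Libraries of a group differed by more than sampling noise. Genes were named if they were members, if a list gene passed an adjusted p of 0.05 and a fold of 1.5 (at most 3 per list and comparison), or if they were a member's most similar gene. Members and lists were chosen with earlier results of these data known. Alternatives were DESeq2 1.42.0, other scaling, filters and thresholds, one joint fit, a replicate block, TPM, and leaving out each library. Promoter windows were read with Python 3.11 and pandas 2.3.3, and figures were drawn with matplotlib 3.10.9. One gene of the lists stays in the counts but is not reported here.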

Additional observations from a re-analysis of the deposited data

Results flagged for a closer look

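By the interaction term of edgeR's quasi-likelihood test, the genotype difference changed with 5-FU for 2 of 10 members and 5 of 52 other cell-death genes. Over all 18696 genes tested, 5.01% passed. Positive values mean that Tespa1-/- LSKs stood relatively higher after 5-FU than untreated. Bcl2 shifted by -0.54 ± 0.09 on the log2 scale (edgeR adjusted p = 0.00266) and Mcl1 by 0.37 ± 0.05 (edgeR adjusted p = 0.000551). Neither call was lost in the 12 fits that left out 1 library. Xaf1 shifted by -0.91 ± 0.19 (edgeR adjusted p = 0.0156) and Tnfsf10 by -0.83 ± 0.17 (edgeR adjusted p = 0.0107). Casp8, named after its value was seen since it lies under a fold of 1.5, shifted by -0.45 ± 0.10 (edgeR adjusted p = 0.0254). Foxo1 shifted by 0.74 ± 0.20 (edgeR adjusted p = 0.0485) and Ddit3 by 0.80 ± 0.17 (edgeR adjusted p = 0.0167).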

How the results depend on the processing

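Over the alternatives, 653 log2 differences of members kept their direction and side of the threshold, 26 lost the call, 6 gained it and 15 changed sign. Mcl1 kept its call in all 5 tests under every alternative fit, as did Bcl2 in the genotype comparison after 5-FU, in the response of Tespa1-/- LSKs and in the interaction, and Bcl2l11 in untreated LSKs and in both responses. By DESeq2, 4 members were called in untreated LSKs, beside 1427 of 17055 genes. Bid was also called there in the joint fit of 12 libraries. With a fold above 1.5 required, the count was 3 between genotypes after 5-FU, 1 for 5-FU in Tespa1+/+ LSKs and 2 in Tespa1-/- LSKs. This held at either an adjusted or an unadjusted p below 0.05. At an adjusted p the shares of all genes were 6.98%, 4.43% and 10.1%, and at an unadjusted p they were not computed. With this fold the interaction gave 0 by edgeR at an adjusted p (3.21% of all genes) and 1 (Pmaip1) at an unadjusted p. Without the fold bound, DESeq2 called 2 members for the interaction, beside 1535 of 18696 genes. Leaving out 1 library gave 2 to 4 called members between genotypes after 5-FU, beside 1519 to 1706 called genes in all. The fits without replicate 1 of either group gave 2. For 5-FU in Tespa1-/- LSKs, Bax was called by DESeq2 (adjusted p = 0.0496), and Bcl2l1 and Bax were called without 5-FU replicate 2.

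All sign changes concerned uncalled values. Over the fits without 1 library, untreated LSKs gave -0.13 to 0.18 for Bcl2l1, -0.031 to 0.20 for Bak1, -0.071 to 0.11 for Pmaip1 and -0.17 to 0.052 for Bad. For 5-FU in Tespa1+/+ LSKs they gave -0.044 to 0.42 for Bcl2l1, -0.20 to 0.023 for Bax and -0.10 to 0.092 for Pmaip1, and for the interaction -0.073 to 0.16 for Bak1. The cause was not tested. Same-numbered libraries showed no strong shared deviation (correlations of -0.0342 to 0.0205). This cannot tell whether the numbers mark pairs, since no libraries of known pairing were there to compare. With a replicate block, Bcl2l1 turned to 0.0024 in untreated LSKs and Bad lost its call in Tespa1-/- LSKs (adjusted p = 0.077), and no other member's call changed.

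Over all genes, the calls in untreated LSKs went from 892 to 1427 by DESeq2, to 454 with the block and to 338 to 808 without 1 library. For 5-FU in Tespa1+/+ LSKs, 1352 became 2062 by DESeq2, 2114 in the joint fit and 783 to 1102 without 1 library, and for the interaction 936 became 1535 by DESeq2 and 573 to 862 without 1 library. On the TPM scale all genes shifted by a median of -0.18 (log2) between genotypes in untreated LSKs. Relative to the median of each comparison, 16 of 16 called members kept their direction, and Bcl2 in untreated LSKs was at -0.05. With no filter on low counts, Bax after 5-FU (adjusted p = 0.0522) and Bad in Tespa1-/- LSKs (0.0645) lost their calls, over a larger set of genes tested. Precision is limited by 3 libraries per group.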
